A study of Mus musculus with 9 samples.

Results

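The desmosomal genes described here are 10 genes chosen by name in the deposited table of normalized gene counts: the cadherins Dsg2 and Dsc2, the armadillo proteins Jup, Pkp1, Pkp2 and Pkp3, the plakins Dsp, Ppl and Evpl, and the membrane protein gene Perp. They are 10 of 22469 genes in the table and 10 of the 17579 that passed the filter on low values (a normalized count of at least 10 in at least 3 libraries). The cells were 4T1, a mouse mammary tumour line that forms metastases when grown in mice, with a knockout of Nat10 in the line KO-c19 or the line KO-c43, or wild type (WT). NAT10 is an acetyltransferase that modifies cytidines in RNA. Each line was grown as 3 biological replicates, 300000 cells were seeded per 6 cm dish and collected at 48 h, and stranded total RNA was sequenced after ribosomal RNA depletion, giving 9 libraries. No other treatment separates the groups in the labels, which do not say how the knockout lines were derived, so KO-c19 and KO-c43 are each 1 line, set against the same 3 WT libraries.

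Desmosomes are junctions that join neighbouring epithelial or cardiac muscle cells and anchor their intermediate filaments. Desmogleins and desmocollins bind across the gap between cells, plakoglobin (Jup) and the plakophilins bind the cadherin tails inside the cell, and desmoplakin (Dsp) links this plaque to keratin filaments. Loss of desmosomes loosens epithelial sheets, and the same genes are mutated in skin disease and arrhythmogenic cardiomyopathy.

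Most of these genes were lower in both knockout lines, KO-c43 departed further from WT than KO-c19 for 8 of the 10, and the plakin Ppl went the other way. In KO-c19 against WT, 7 genes fell, Ppl rose, and Dsc2 and Jup did not pass the test. Of all tested genes, 34.9% fell and 32.8% rose in that comparison, so a called change was common in the whole table. At least 2-fold changes were rarer, and 5 of the 10 fell that far (Dsg2, Dsp, Pkp1, Pkp2 and Perp), beside 6.41% of all tested genes. Ppl was the 1 of 10 that rose at least 2-fold, beside 9.06% of all tested genes. Scaling by library totals changed the split of all called genes in this comparison from 48.4% higher to 57.8% higher, and 5 of the 10 genes then fell. In KO-c43 against WT the split went from 49.5% to 54.1% higher.

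In KO-c43 against WT, 9 of the 10 fell and Ppl rose, beside 33.1% of all tested genes that fell and 32.5% that rose. At least 2-fold falls covered 7 of the 10 (Dsg2, Dsc2, Dsp, Pkp1, Pkp2, Perp and Evpl), against 6.18% of all tested genes. None of the 10 rose at least 2-fold, where 8.28% of all tested genes did. The median difference of the 10 genes was −0.75 in KO-c19 and −2.33 in KO-c43 on the log2(normalized count + 1) scale, and that of all tested genes was 0.0032 and 0.0070. Differences here are limma estimates on that scale with their standard errors (SE), folds come from the same scale and understate changes of low genes, and p-values are adjusted over all tested genes with a threshold of 0.05.

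The 10 genes all differed between the lines, with limma adjusted p between 2.24e-18 (Dsg2) and 0.000388 (Ppl). KO-c19 set against KO-c43 gave 9 of the 10 genes higher in KO-c19 and Pkp2 lower, beside 18.3% of all tested genes higher and 21.1% lower. Scaling by library totals turned the split over all tested genes from 46.3% higher to 59.3% higher of those called. At least 2-fold differences covered 6 genes higher in KO-c19 (Dsg2, Dsc2, Dsp, Pkp1, Perp and Evpl), beside 3.45% of all tested genes, and Pkp2 lower, beside 2.55%. The comparisons of the 2 lines with WT share the WT libraries. Replicates of a group are cultures of the same line, so the spread behind each p-value is that between cultures and not between independently made lines.

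**Figure D1:**
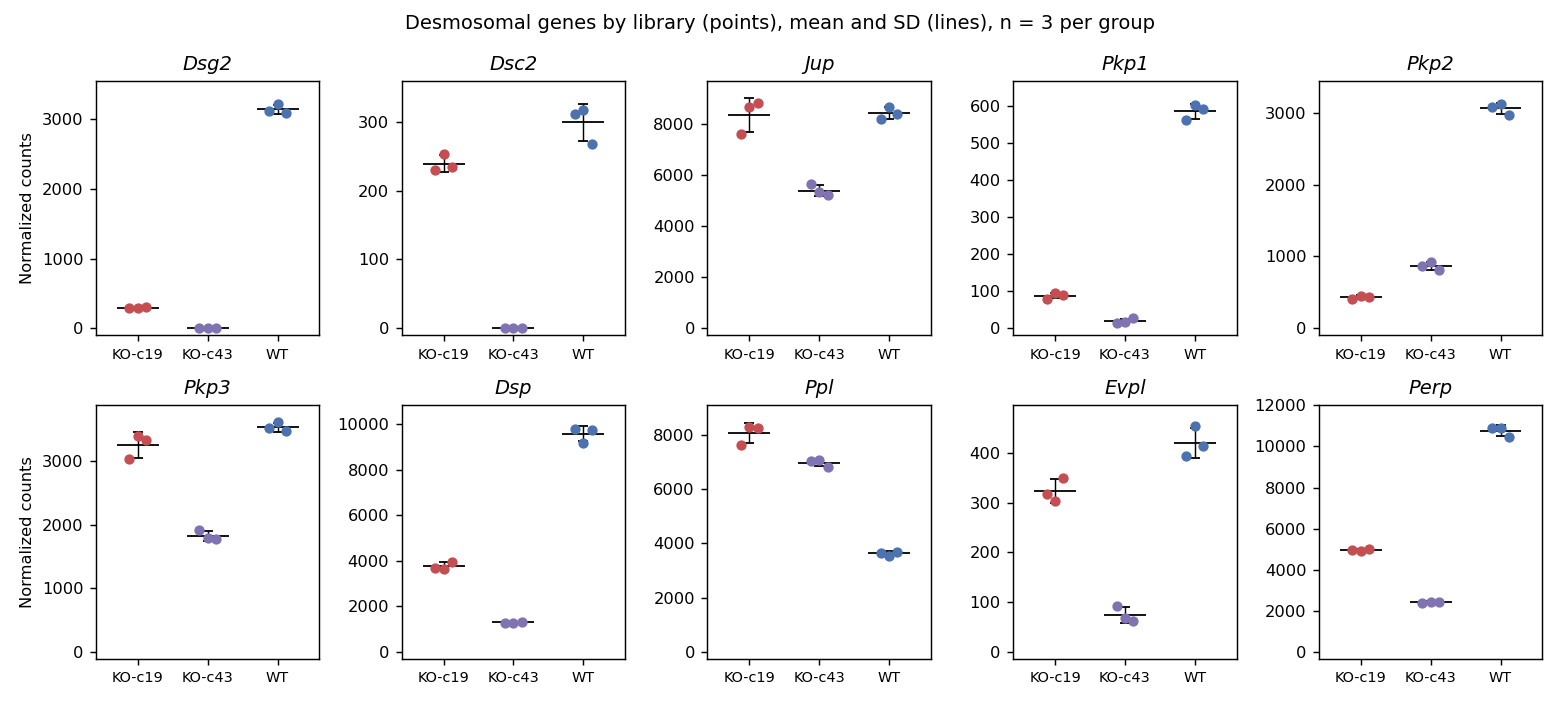
Normalized counts of the 10 desmosomal genes, 1 panel per gene with its own linear axis from 0. Points are the libraries of KO-c19, KO-c43 and WT, and lines give the mean and SD (n = 3 per group); Dsg2 and Dsc2 lie at 0 in all 3 KO-c43 libraries, and Ppl alone is higher in both knockout lines than in WT.

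The libraries had normalized totals of 45628576 to 50123222. Nat10, the targeted gene, had 1748, 1761 and 1710 normalized counts in KO-c19, 1724, 1748 and 1766 in KO-c43, against 6432, 6501 and 6428 in WT. All 8 epithelial markers examined were tested, with 6 lower and 2 higher in both lines. Their summed level was 92858 to 100691 in KO-c19, 88925 to 91919 in KO-c43 and 134989 to 145843 in WT. Krt7, Krt8 and Krt18 made up most of this sum, and Krt8 and Krt18 were the 2 higher. Averages in KO-c19, KO-c43 and WT were 963, 123 and 6422 for Epcam and 0.742, 0.672 and 3692 for Cldn3. They were 113, 459 and 9157 for Cldn4 and 2.03, 2.17 and 2885 for Cldn7. Krt7 and Cdh1 also fell. Residual 18S ribosomal RNA (Rn18s) made up 0.916% to 1.26% of the counts in KO-c19, 1.27% to 2.59% in KO-c43 and 2.06% to 4.40% in WT, and its part in the results was not tested. Bulk RNA cannot tell fewer cells that express a gene from less RNA per cell.

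Among the cadherins, Dsg2 encodes desmoglein 2, the desmoglein of simple epithelia. Dsg2 (ENSMUSG00000044393) spans 20691131 to 20737578 on chromosome 18, plus strand as placed by the deposited table, which names no genome build. Dsg2 had 291.5, 284.5 and 297.1 normalized counts in KO-c19, had 0 in each of the 3 KO-c43 libraries, and had 3117, 3222 and 3093 in WT. Every KO-c19 library lay far below every WT library, and the 3 groups did not overlap. The Dsg2 level in KO-c19 was 9.26% of WT, and its log2 difference was −3.43 ± 0.118 (limma adjusted p = 3.32e-14). In KO-c43 the limma adjusted p against WT was 1.28e-20, with no fold given because Dsg2 was listed at 0. A noncoding gene antisense to Dsg2, Gm16090, averaged 2.11 in KO-c19, 0 in KO-c43 and 8.06 in WT.

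Dsc2 encodes desmocollin 2, the partner desmosomal cadherin of the same epithelia. Dsc2 (ENSMUSG00000024331) spans 20163690 to 20192611 on chromosome 18, minus strand, 498.5 kb from Dsg2. Its values were 230.1, 253.3 and 234.9 in KO-c19, 0 in each KO-c43 library, and 312.2, 317.4 and 268.5 in WT. The KO-c19 and WT ranges did not overlap, yet the difference of −0.32 ± 0.176 did not pass the test (limma adjusted p = 0.119). KO-c43 differed from WT with limma adjusted p = 4.41e-17. The 2 cadherins summed to 80.6 ± 1.78 normalized counts per kilobase of exon in KO-c19, 0 in KO-c43 and 437 ± 12.5 in WT (SD, n = 3 each). Among the 11975 tested genes with a WT mean of at least 100 normalized counts, 15 were listed at 0 in all KO-c43 libraries, 7 in all KO-c19 libraries and 1 in both.

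Of 7 other desmosomal cadherin genes looked for, 2 had a row. Dsg1c, a desmoglein of stratified epithelia, had 29.6, 28.3 and 27.8 normalized counts in KO-c19, 0.968, 0 and 0 in KO-c43, against 0, 2.22 and 1.10 in WT. KO-c19 stood above the other libraries in a gene at the low end of the scale. Dsg1c passed the low-value filter only through its KO-c19 libraries, so its KO-c19 difference from WT (log2 3.97) is given as a value only. KO-c43 did not pass the test against WT (limma adjusted p = 0.368). Dsg3, another desmoglein of stratified epithelia, did not pass the low-value filter, with 1.64, 0 and 0 in KO-c19, 0, 1.80 and 0 in KO-c43, against 10.8, 7.77 and 12.1 in WT. The other 5 were not analysed here.

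Plakoglobin, encoded by Jup, binds both desmosomal and classical cadherins. Jup (ENSMUSG00000001552) spans 100259784 to 100288589 on chromosome 11, minus strand in the table. It had 7598, 8671 and 8819 normalized counts in KO-c19, 5633, 5316 and 5218 in KO-c43, against 8194, 8668 and 8406 in WT. The KO-c19 libraries spread across the WT range while every KO-c43 library lay below it. The KO-c19 difference was −0.01 ± 0.050 (limma adjusted p = 0.833), and its sign turned under scaling by library totals (0.085). In KO-c43 Jup fell 1.56-fold (log2 −0.64 ± 0.050, limma adjusted p = 4.32e-09).

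Plakophilin 1, encoded by Pkp1, stabilises desmosomes of stratified epithelia. Pkp1 (ENSMUSG00000026413) spans 135799133 to 135846945 on chromosome 1, minus strand. Its values were 79.7, 94.2 and 89.1 in KO-c19, 13.6, 17.1 and 26.2 in KO-c43, against 563, 602 and 593 in WT. The groups were fully separated, KO-c43 lowest. The log2 differences from WT were −2.73 ± 0.177 in KO-c19 and −4.93 ± 0.177 in KO-c43, which are 6.63-fold and 30.4-fold falls (limma adjusted p = 3.11e-10 and 1.14e-13). A gene annotated inside Pkp1 on the same strand, Gm36938, averaged 17.4, 3.32 and 179 in KO-c19, KO-c43 and WT, and reads of the 2 genes may not be separable.

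Plakophilin 2, encoded by Pkp2, is widely expressed in simple epithelia and heart. Pkp2 (ENSMUSG00000041957) spans 16031182 to 16090576 on chromosome 16, plus strand. It had 403, 452 and 435 normalized counts in KO-c19, 859, 917 and 816 in KO-c43, against 3089, 3129 and 2975 in WT. KO-c19 was lowest here, unlike the other genes that fell. The log2 differences from WT were −2.83 ± 0.057 in KO-c19 and −1.83 ± 0.057 in KO-c43 (limma adjusted p = 2.63e-17 and 8.75e-15). KO-c19 was lower than KO-c43 (log2 difference −1.004, limma adjusted p = 1.58e-10), so Pkp2 sat at the 2-fold limit.

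Plakophilin 3, encoded by Pkp3, binds all desmosomal cadherins in simple and stratified epithelia. Pkp3 (ENSMUSG00000054065) spans 140658131 to 140670423 on chromosome 7, plus strand. Its values were 3022, 3397 and 3334 in KO-c19, 1917, 1788 and 1771 in KO-c43, against 3516, 3605 and 3469 in WT. KO-c19 lay just below WT and KO-c43 well below it. The KO-c19 difference of −0.12 ± 0.048 passed the test (limma adjusted p = 0.0342) and failed it under 6 alternatives, among them without WT replicate 1, WT replicate 2 or KO-c19 replicate 1. In KO-c43 Pkp3 fell 1.93-fold (log2 −0.95 ± 0.048, limma adjusted p = 6.57e-12).

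Levels of different genes were set side by side per kilobase of exon. The summed plakophilin level was 997 ± 61.5 in KO-c19, 670 ± 23.0 in KO-c43 and 1665 ± 34.1 in WT (SD, n = 3 each). Pkp3 held 90.2% of it in KO-c19, 75.4% in KO-c43 and 58.6% in WT. Pkp2 held 8.05%, 24.1% and 34.3% in the same order, and Pkp1 1.75%, 0.568% and 7.01%. The mix of plakophilins therefore differed between the 3 lines, with Pkp3 the main one in each.

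**Figure D2:**
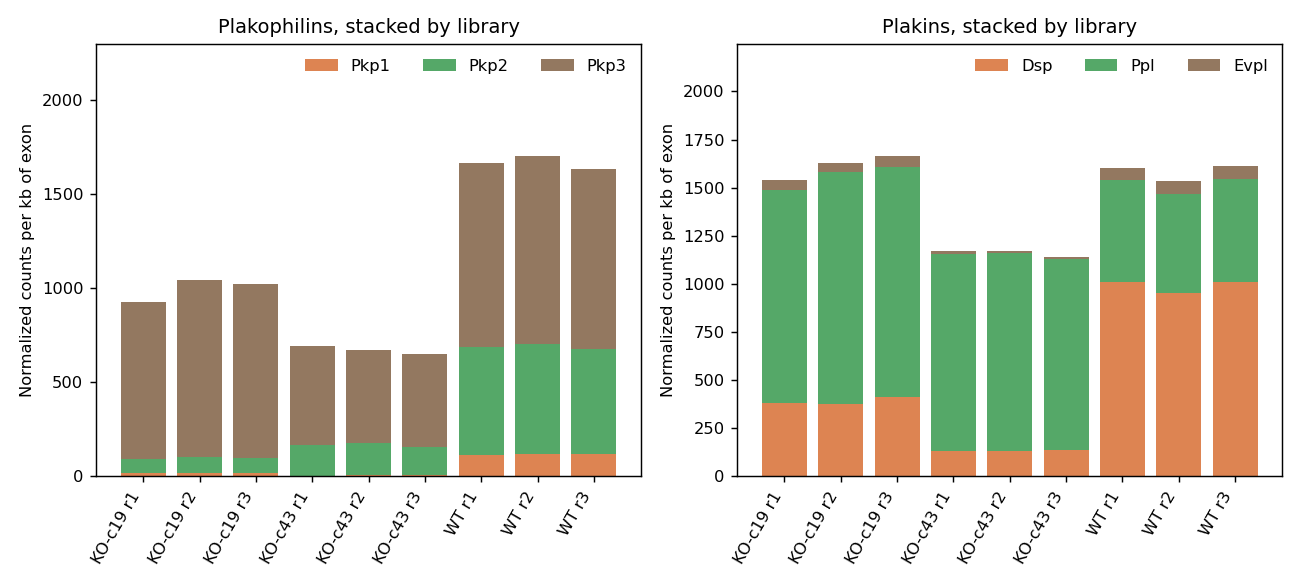
Normalized counts per kilobase of exon, stacked by gene in each of the 9 libraries, for the plakophilins (left panel) and the plakins (right panel). Pkp3 fills most of the plakophilin bar in each library, and Ppl averages 1171 in KO-c19, 1014 in KO-c43 and 527 in WT.

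The plakin desmoplakin, encoded by Dsp, carries the plaque's link to keratin. Dsp (ENSMUSG00000054889) spans 38335270 to 38382553 on chromosome 13, plus strand. It had 3667, 3640 and 3956 normalized counts in KO-c19, 1281, 1276 and 1319 in KO-c43, against 9770, 9193 and 9761 in WT. The 3 groups were far apart relative to the spread within each. Dsp fell 2.55-fold in KO-c19 (log2 −1.35 ± 0.042, limma adjusted p = 9.31e-15) and 7.40-fold in KO-c43 (log2 −2.89 ± 0.042, limma adjusted p = 3.54e-19). A gene that overlaps Dsp on the opposite strand, Gm10129, averaged 40.0, 13.2 and 38.0 in KO-c19, KO-c43 and WT.

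Periplakin, encoded by Ppl, is a plakin of desmosomes and of the cornified envelope, the protein shell of surface keratinocytes. Ppl (ENSMUSG00000039457) spans 4904155 to 4950285 on chromosome 16, minus strand. Its values were 7645, 8307 and 8271 in KO-c19, 7051, 7092 and 6831 in KO-c43, against 3657, 3541 and 3699 in WT. All 6 knockout libraries lay above all WT libraries. The rise was 2.22-fold in KO-c19 (log2 1.15 ± 0.040, limma adjusted p = 3.39e-14) and 1.92-fold in KO-c43 (log2 0.94 ± 0.040, limma adjusted p = 5.44e-13). Between the lines, KO-c19 was higher by 0.21 ± 0.040 (limma adjusted p = 0.000388).

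Envoplakin, encoded by Evpl, pairs with periplakin. Evpl (ENSMUSG00000034282) spans 116111385 to 116128903 on chromosome 11, minus strand. It had 317, 304 and 351 normalized counts in KO-c19, 93.0, 67.7 and 62.8 in KO-c43, against 394, 454 and 415 in WT. Both lines were below WT with no overlap. The KO-c19 difference of −0.38 ± 0.124 passed (limma adjusted p = 0.0127) but not without WT replicate 2 (0.0604) or with scaling by library totals (0.0592). In KO-c43 Evpl fell 5.66-fold (log2 −2.50 ± 0.124, limma adjusted p = 6.94e-12). The ratio of Ppl to Evpl per kilobase was 23.2 ± 1.88 in KO-c19, 89.3 ± 16.6 in KO-c43 and 8.02 ± 0.711 in WT (SD, n = 3 each).

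The summed plakin level per kilobase was 1611 ± 65.0 in KO-c19, 1160 ± 19.4 in KO-c43 and 1584 ± 41.5 in WT, so the KO-c19 sum overlapped that of WT. Its composition differed, since Ppl made up 72.7% in KO-c19, 87.5% in KO-c43 and 33.3% in WT, and Dsp 24.1%, 11.5% and 62.6%. The ratio of Ppl to Dsp was 3.02 ± 0.157, 7.59 ± 0.286 and 0.532 ± 0.008 in KO-c19, KO-c43 and WT.

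Perp, a tetraspan membrane protein of desmosomes and a target of p53 and p63, had the highest level per kilobase of the 10 in all 3 groups. Perp (ENSMUSG00000019851) spans 18720768 to 18732821 on chromosome 10, plus strand. It had 4950, 4894 and 4999 normalized counts in KO-c19, 2361, 2446 and 2420 in KO-c43, against 10906, 10925 and 10454 in WT. The groups were fully separated and tight. In KO-c19 Perp fell 2.17-fold (log2 −1.12 ± 0.036, limma adjusted p = 1.16e-14) and 4.47-fold in KO-c43 (log2 −2.16 ± 0.036, limma adjusted p = 1.66e-18).

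**Figure D3:**
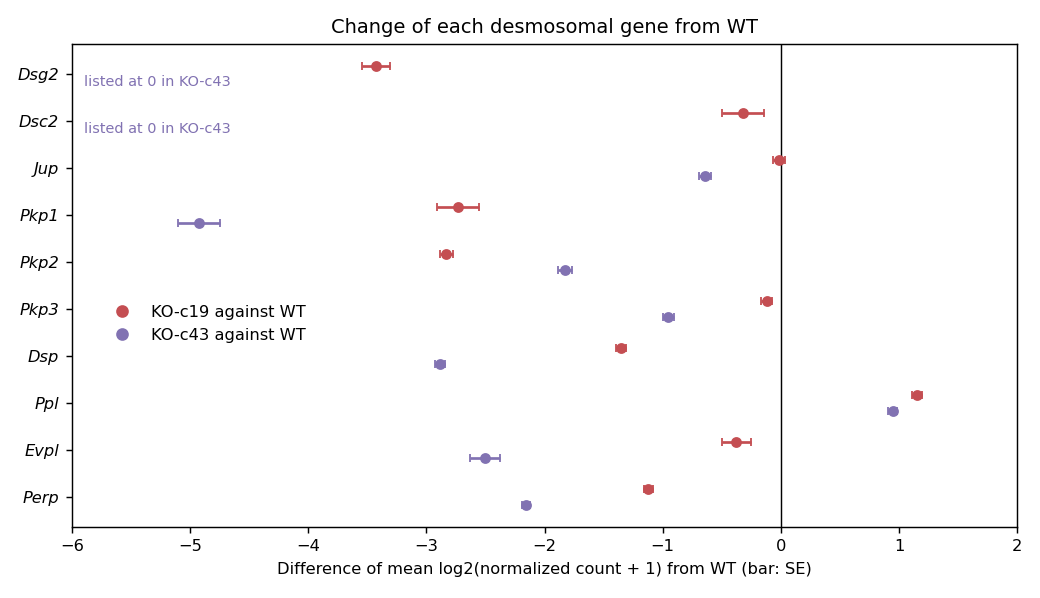
Log2 differences from WT of the 10 desmosomal genes in KO-c19 and KO-c43, with bars for the SE; Dsg2 and Dsc2 in KO-c43 are listed at 0 and shown as text. Ppl lies above 0 in both lines and the other genes below it, with Jup in KO-c19 at −0.01 (0.085 with scaling by library totals), and KO-c43 lies further from WT than KO-c19 except for Pkp2 and Ppl.

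Per kilobase, WT ranked Perp, Jup, Dsp and Pkp3, Pkp2, Ppl, Dsg2, Pkp1, Evpl and Dsc2, where the Dsp and Pkp3 ranges overlapped. In KO-c19 the order was Perp, Jup and Ppl, Pkp3, Dsp, Pkp2, Evpl and Dsc2, Dsg2 and Pkp1, where Jup and Ppl overlapped, as did Evpl and Dsc2. In KO-c43 it was Perp, Ppl, Jup, Pkp3, Pkp2, Dsp, Evpl and Pkp1, with Dsg2 and Dsc2 listed at 0. The ratio of Dsp to Jup per kilobase, the filament linker over plakoglobin, was 0.300 ± 0.021 in KO-c19, 0.160 ± 0.008 in KO-c43 and 0.758 ± 0.046 in WT. The sum over all 10 genes was 6522 ± 231 in KO-c19, 3901 ± 58.7 in KO-c43 and 10507 ± 157 in WT.

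The start regions of Dsp and Jup were read from the RefSeq promoter table on GRCm38.p6, which matched 2 of the 10 genes, to show a gene that fell in both lines (Dsp) beside one that fell in KO-c43 and did not pass the test in KO-c19 (Jup). Each is 270 bases, from 250 before to 20 after the transcription start, at chr13:38151044-38151313 on the plus strand for Dsp and chr11:100397771-100398040 on the minus strand for Jup. Capitals mark the E-box CAGGTG (reverse CACCTG), the letters bound by Snail and ZEB repressors, searched on both strands with the palindrome AACCGGTT of grainyhead factors.
Dsp: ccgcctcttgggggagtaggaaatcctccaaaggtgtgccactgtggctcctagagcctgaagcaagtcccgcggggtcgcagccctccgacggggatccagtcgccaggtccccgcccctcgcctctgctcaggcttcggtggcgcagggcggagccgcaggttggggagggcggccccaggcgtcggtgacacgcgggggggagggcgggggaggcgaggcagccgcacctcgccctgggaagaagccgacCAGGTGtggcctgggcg
Jup: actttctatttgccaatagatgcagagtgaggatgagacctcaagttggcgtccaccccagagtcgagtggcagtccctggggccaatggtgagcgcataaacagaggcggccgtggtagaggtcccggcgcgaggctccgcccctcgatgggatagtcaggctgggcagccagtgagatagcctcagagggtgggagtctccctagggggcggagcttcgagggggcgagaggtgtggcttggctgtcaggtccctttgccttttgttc
The Dsp window held 1 E-box, 3 bases after the start, and no grainyhead letters. The Jup window held neither. Over RefSeq windows of the same length, 18.4% held the E-box and 0.128% the grainyhead letters.

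Related junction genes were followed in lists. The count of each list stands beside the shares of all tested genes that were called. These were 34.9% lower and 32.8% higher in KO-c19, and 33.1% lower and 32.5% higher in KO-c43. Of the 9 tested genes of classical cadherin adhesion, KO-c19 had 7 lower and 1 higher than WT and KO-c43 had 7 lower and 2 higher. The median log2 difference of the list was −0.88 in KO-c19 and −1.26 in KO-c43. Cdh1, the E-cadherin gene, averaged 5797, 3731 and 26262 normalized counts in KO-c19, KO-c43 and WT, a fall of 4.53-fold in KO-c19 and of 7.04-fold in KO-c43 (limma adjusted p = 4.25e-18 and 1.85e-19). Pairs of log2 differences are for KO-c19 and then KO-c43, each against WT. Afdn, encoding the nectin-binding protein afadin, fell in both lines (log2 −0.88 and −0.70), as did Nectin2, a nectin of adherens junctions (log2 −0.96 and −1.26). Nectin1, its relative, fell in KO-c43 (log2 −1.38) and did not pass in KO-c19 (limma adjusted p = 0.131).

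Of the 6 tested plakophilin and plakin relatives outside the desmosome, 4 rose and 2 fell in each line, with medians of 0.43 and 0.32 on the log2 scale and none past 2-fold. Plec, encoding plectin, the plakin of hemidesmosomes and the wider cytoskeleton, averaged 64424 in KO-c19, 64137 in KO-c43 and 33200 in WT and rose in both lines (log2 0.96 and 0.95). Dst, encoding dystonin, rose too (log2 0.67 and 0.80), as did Macf1, a plakin that crosslinks actin and microtubules (log2 0.48 and 0.56). Pkp4, a plakophilin relative of adherens junctions, fell (log2 −0.52 and −0.68).

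Among the keratins that desmosomes tether, 5 of 8 tested fell and 3 rose in both lines. Krt14, the basal keratinocyte keratin, averaged 22.2 in KO-c19, 15.1 in KO-c43 and 4960 in WT. The log2 differences were −0.78 and −1.26 for Krt19, −0.71 and −0.71 for Krt7, and −1.84 and −2.97 for Krt16. The simple-epithelial partners Krt8 (log2 0.28 and 0.18) and Krt18 (log2 0.28 and 0.17) rose. Krt15, the other keratin counted as higher, averaged 33.0, 51.1 and 5.79 in KO-c19, KO-c43 and WT. Krt15 passed the low-value filter only through its knockout libraries, so its differences (log2 2.34 and 2.95) are given as values only. Of 3 other intermediate filament genes tested, all 3 rose in KO-c19 and 2 in KO-c43; Vim, the vimentin gene, averaged 78057, 200832 and 37937 in KO-c19, KO-c43 and WT.

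In the hemidesmosome list, 4 of 7 rose and 3 fell in each line. The integrin genes Itga6 and Itgb4 rose, with log2 differences of 0.71 and 0.90 for Itga6 and 1.11 and 0.70 for Itgb4. Lamb3, which encodes a laminin chain, fell in both lines (log2 −2.55 and −3.98). Lama3, another laminin chain gene, fell too and averaged 85.0, 25.0 and 1762 in KO-c19, KO-c43 and WT. The cornified envelope list had 4 of 14 genes tested, of which KO-c19 had 1 higher and 1 lower than WT and KO-c43 had 2 higher and 1 lower. Of the 2 higher in KO-c43, 1 passed the low-value filter only through its KO-c43 libraries. Tgm1, a cross-linking enzyme of the envelope, fell and averaged 2.43, 0.946 and 59.5 in KO-c19, KO-c43 and WT. Cdsn, the corneodesmosome adhesion protein gene, rose and averaged 89.0, 80.6 and 43.8.

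Of 13 tested regulators of epithelial junction genes, 10 fell and 3 rose in each line, with medians of −0.70 and −1.66. The list holds transcription factors and the splicing factors Esrp1 and Esrp2. Esrp1, an epithelial splicing factor, was listed at 0 in KO-c19 and averaged 0.349 in KO-c43 and 4373 in WT. Esrp2, its relative (log2 −1.12 and −1.66), fell, and so did Elf3, an epithelial ETS factor (log2 −0.81 and −1.31). Ovol1, a zinc finger factor that maintains epithelial identity, fell too (log2 −0.32 and −2.06), though its KO-c19 and WT ranges overlapped. These 4 are from the side that went down. Klf4 was among the 3 that rose (log2 0.89 and 1.11). Among 4 tested repressors, all 4 rose in KO-c19 and 3 in KO-c43, with log2 differences of 1.31 and 1.64 for Zeb2, 2.00 and 2.05 for Twist1, and 3.53 and 4.28 for Twist2. Zeb1 did not pass the low-value filter, at 2.03, 1.90 and 13.7 in KO-c19, KO-c43 and WT.

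Of the 11 genes of desmosome turnover and signalling, 5 rose and 4 fell in each line. Sfn, encoding 14-3-3 sigma, averaged 210, 718 and 5836 in KO-c19, KO-c43 and WT. Egfr, whose signal loosens desmosomes, averaged 95.9, 11.1 and 178, and Cav1, the caveolin gene, fell in both lines (log2 −1.31 and −0.69). These 3 are from the side that went down. The same 5 members were higher than WT in both lines, each by less than 2-fold, among them Flot2 (log2 0.20 and 0.77). Of 4 tested genes of the cardiac intercalated disc, 3 fell in each line, and 1 rose in KO-c43. Tjp1, a tight junction scaffold, fell in both (log2 −0.64 and −0.32).

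**Figure D4:**
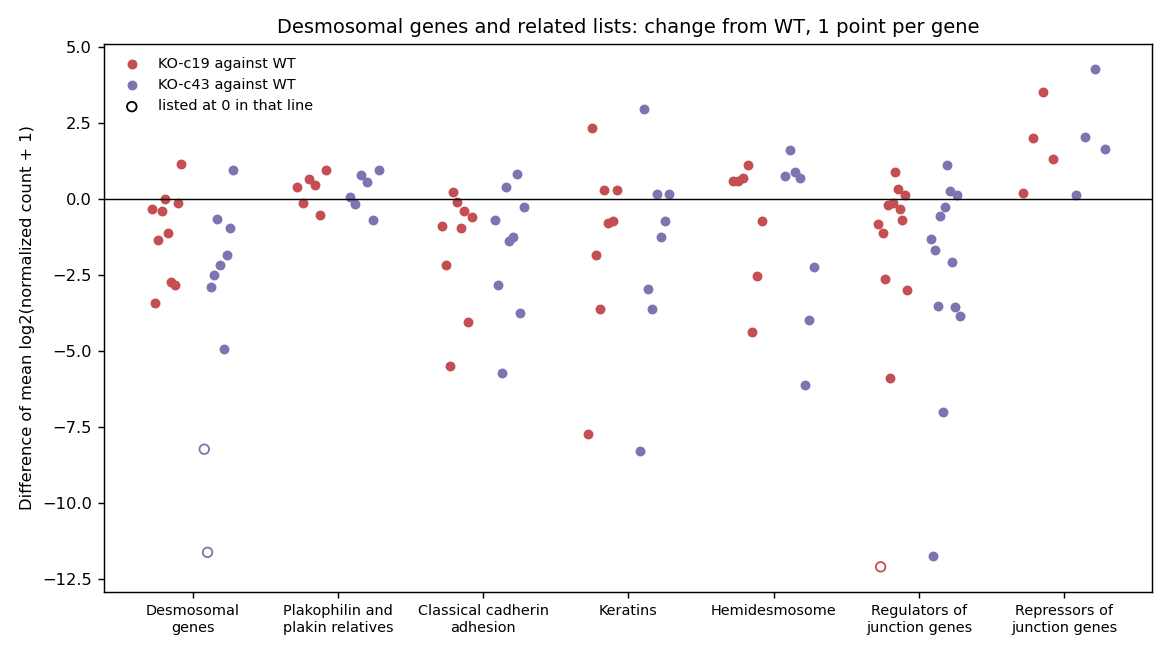
Differences from WT of mean log2(normalized count + 1), 1 point per tested gene, for the desmosomal genes and 6 related lists, KO-c19 left and KO-c43 right in each. Open circles are genes listed at 0 in that line, whose place depends on the pseudocount. The 4 repressors lie above 0, among them Twist2, which was tested only through its knockout libraries. Most classical cadherin genes lie below 0.

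Markers of other cell types moved with the groups mainly through single genes. Of 6 fibroblast markers 4 had a row, and the list summed to 838 to 904 normalized counts in KO-c19, 411 to 510 in KO-c43 and 314 to 327 in WT. Pdgfra made up most of it and rose in both lines (means of 866, 450 and 273 in KO-c19, KO-c43 and WT). The collagen genes Col1a1 (2.72, 6.53 and 28.5) and Col1a2 (0, 1.92 and 15.6) were near 0 in both knockout lines. Of 5 immune markers 2 had a row, with sums of 247 to 312, 174 to 215 and 153 to 210, mostly from Cd68, while the pan-leukocyte gene Ptprc averaged 9.09, 0.951 and 1.04. Of 3 endothelial markers only Pecam1 had a row, at 9.86 to 17.2 in KO-c19, 1.94 to 2.71 in KO-c43 and 4.51 to 11.0 in WT. Of 4 cardiac muscle markers only Tnnt2 had a row, at 2686, 772 and 4752 in KO-c19, KO-c43 and WT, and it fell in both lines. The listed markers with no row were not analysed here.

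The nearest tested neighbour on each side of each desmosomal gene was examined. Of 20 neighbours, 9 were higher and 9 lower in KO-c19 than in WT, beside 32.8% and 34.9% of all tested genes. The 9 higher include the desmosomal cadherin gene Dsg1c, after Dsc2, which passed the low-value filter only through its KO-c19 libraries. For KO-c43 the counts were 8 and 8, beside 32.5% and 33.1%. In KO-c19, 8 had the sign of the desmosomal gene beside them and 7 the opposite sign, and in KO-c43 8 and 8. The neighbours of Dsg2 are processed pseudogenes, whose counts may hold reads of other gene copies. Tpi-rs10, before it, averaged 96.1, 99.1 and 68.1 in KO-c19, KO-c43 and WT and rose (log2 0.50 and 0.54), and Gm10269, after it, averaged 211, 239 and 294 and fell (log2 −0.47 and −0.30). Arfgef3, before Perp, averaged 3.05, 0.645 and 121. Yars2, after Pkp2, fell in both lines (log2 −0.97 and −1.06), as Pkp2 did. P3h4, after Jup, had 104, 105 and 118 in KO-c19, 0 in all 3 KO-c43 libraries and 26.2, 33.3 and 20.8 in WT.

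For each desmosomal gene, the non-member with the most similar pattern was the one with the smallest root-mean-square difference over the 9 libraries of log2 values relative to each gene's WT mean. Small values were those of Arid5b for Ppl (0.0344), Gpa33 for Jup (0.0490), Dot1l for Pkp3 (0.0596), Wnt7a for Pkp2 (0.100), Erbb3 for Dsp (0.101) and Frrs1 for Perp (0.101). Tmem125 followed for Pkp1 (0.192), Mapk13 for Evpl (0.205) and Rasef for Dsc2 (0.291), and Lcp1 was a distant nearest for Dsg2 (1.89). Rasef averaged 354, 0 and 317 in KO-c19, KO-c43 and WT. For the mean of the 10 genes, whose value depends on the pseudocount because of values listed at 0, Slc39a4 (0.125), Arhgdig (0.143) and Vwa2 (0.217) were nearest.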

How the data were processed

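Stranded total RNA, with ribosomal RNA removed, was measured in 9 libraries of 4T1 cells. Per the submitters' processing notes, the authors used mm10 with cutadapt, STAR and Partek. The sources used here do not give their versions, the read counter or its use of strand, so reads of overlapping genes may not be separable. Each deposited value is a signal, namely a gene's count after division by a library's size factor by the authors. Values include fractions of a read, so raw depth is unknown and no count model was run. All 9 value columns were matched to a sample by their titles.

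The filter of a value of 10 or more in 3 or more libraries kept 17579 of 22469 genes, which were tested with limma 3.58.1 in R 4.3.3 on log2(value + 1), with an intensity trend, robust empirical Bayes and the means of 3 groups, two-sided, with Benjamini-Hochberg adjustment over all tested genes and a threshold of 0.05. The test was run on simulated data first. Exon lengths came from GENCODE M21 (GRCm38) by gene identifier and promoters from RefSeq (GRCm38.p6). Gene coordinates are those of the deposited table. These coordinates are not GRCm38, although the processing notes name mm10, which is another name of that build. Beside the members, the text names per list at most 4 genes, those of lowest adjusted p, the nearest tested neighbours and the nearest patterns; others are named as values where a result turns on them, and a gene that the rule names is not reported here. The members and lists were chosen with earlier results of these data known. Alternatives were other pseudocounts, filters and scalings, other empirical Bayes settings, only the groups compared, a replicate block, and single libraries left out. Python 3.11.15 and matplotlib 3.10.9 drew the figures.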

Additional observations from a re-analysis of the deposited data

Results flagged for a closer look

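The change from WT differed between the knockout lines for each of the 10 desmosomal genes, by the limma contrast of KO-c19 against KO-c43, which is the difference of their changes from the shared WT libraries. On the log2 scale, KO-c19 minus KO-c43, it was 2.20 for Pkp1, 2.12 for Evpl, 1.54 for Dsp, 1.04 for Perp, 0.83 for Pkp3, 0.63 for Jup and 0.21 for Ppl. Pkp2 alone had the opposite sign, at −1.004. Dsg2 and Dsc2 were listed at 0 in KO-c43, so they have no fold, and their limma adjusted p was 2.24e-18 and 4.67e-16. In the same contrast 18.3% of all tested genes were higher in KO-c19 and 21.1% lower.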

How the results depend on the processing

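Of 570 values of the desmosomal genes under alternatives, 555 kept their direction and their side of the threshold, 8 lost the call (Pkp3 6 times and Evpl 2 times, in KO-c19 against WT), 3 gained it (Dsc2) and 4 changed sign. All 4 sign changes were of Jup in KO-c19 against WT, at 0.085 with scaling by library totals, 0.072 with quantile scaling, 0.0078 without WT replicate 2 and 0.054 without KO-c19 replicate 1, beside a range of −0.053 to 0.054 on leaving out 1 library; the cause was not tested. Dsc2 in KO-c19 passed without trend and robust estimation (limma adjusted p = 0.00473), with only the groups compared (0.00784) and with a pseudocount of 5 (0.0471). Without one library, 6 to 8 of the 10 genes were called in KO-c19 against WT and 10 in the other comparisons; over all genes the calls ran from 11021 to 11874 in KO-c19 against WT, 10683 to 11864 in KO-c43 against WT and 5907 to 7555 between the lines. Same-numbered libraries did not deviate together (correlations −0.0914 to 0.0754 over 9 pairs), and the replicate block gave 11774, 11455 and 6799 calls with 8, 10 and 10 of the desmosomal genes. Scaling by totals moved the median of all genes to 0.10 in KO-c19, 0.05 in KO-c43 and 0.06 between the lines. Values listed at 0 cannot tell absence from a level below detection, and raw depth is unknown.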
